A study of Homo sapiens with 2 samples.

Results

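The 9 genes AQR, RNASEH1, RNASEH2A, RNASEH2B, RNASEH2C, DHX9, TOP1, DDX5 and SIN3A, which encode helicases, RNase H subunits and partners that remove or limit R-loops, were followed on a pair of arrays from A375 cells, 1 from a sample transfected with an siRNA against THOC2 (si-THOC2) and 1 from a sample transfected with the control siRNA NC. Every probe carrying one of these symbols in the deposited table of all probes was taken, which gave 11 probes of 9 genes among 58199 probes and 34757 gene symbols. A375 is an established human melanoma cell line. The labels give 48 h with siRNA for both samples and name no other treatment or difference between them. The labels and the study's methods name different culture media, and of the THOC2 siRNAs listed in the methods, the one on the array is not named there. For both samples the source field names the condition opposite to the one in the title and the description, and the titles and descriptions were followed.

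An R-loop forms when a new RNA pairs again with the DNA strand it was copied from and leaves the opposite DNA strand single. THOC2 belongs to THO, a complex that binds nascent RNA, packs it with export factors and is known to keep such hybrids rare. The members act on the same structure in different ways. RNase H enzymes cut the RNA of the hybrid, the helicases AQR, DHX9 and DDX5 unwind it, TOP1 relaxes the twisted DNA in which it forms, and SIN3A holds together a histone deacetylase complex that is known to bind THO.

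With si-THOC2, no member passed the 2-fold threshold used in the study's methods, and the largest difference among them was in RNASEH2A, the catalytic subunit of RNase H2, which was 1.27-fold higher. RNASEH2B, another subunit of that enzyme, was 1.09-fold lower. DDX5, RNASEH1, DHX9 and RNASEH2C were higher by 1.05-fold to 1.11-fold, SIN3A was at 1.02-fold, and the probes of AQR and of TOP1 pointed in opposite directions within each gene. There was 1 array per condition, so no test between conditions could be made, the spread between cultures is unknown, and each difference is between these 2 arrays only.

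Of the 11 probe sequences, 6 are printed, from the probes read here as protein-coding, to show which stretch of each message was measured. The array probes are 60 bases long and carry the sense of the message. Exon annotation was not used here. In the RNASEH1 probe, capitals mark the codons for threonine, aspartate and serine that hold an aspartate of the enzyme's catalytic centre. In the DHX9 probe they mark runs of glycine codons in the glycine-rich tail of this helicase. The other sequences have no part singled out.
RNASEH1, hg19 chr2:3596242-3596301, minus strand: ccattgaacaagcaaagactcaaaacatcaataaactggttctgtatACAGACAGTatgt
RNASEH2B, hg19 chr13:51522141-51522200, plus strand: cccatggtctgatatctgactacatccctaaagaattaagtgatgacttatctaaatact
DHX9, hg19 chr1:182856256-182856315, plus strand: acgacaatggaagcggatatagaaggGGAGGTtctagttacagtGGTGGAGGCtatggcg
DDX5, hg19 chr17:62496285-62496344, minus strand: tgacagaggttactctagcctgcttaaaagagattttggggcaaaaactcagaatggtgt
AQR upstream probe, hg19 chr15:35149288-35152282, minus strand: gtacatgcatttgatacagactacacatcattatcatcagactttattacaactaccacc
TOP1 upstream probe, hg19 chr20:39742734-39742793, plus strand: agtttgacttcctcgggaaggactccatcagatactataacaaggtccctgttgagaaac

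The AQR upstream probe spans 2995 bases of the genome with 60 bases of sequence, so it lies across at least 1 intron, while each of the other 10 member probes spans 60 bases. No member probe shares a run of 20 bases with an array probe of another gene. The GC content of the member probes ran from 35% to 51.7%.

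The siRNA target was read first. The THOC2 probe at hg19 chrX:122734486-122734545 read 136 on the NC array and 40.9 on the si-THOC2 array, which gave -1.42 as its log2 fold change. The other THOC2 probe, at chrX:122747960-122748019, read 67.3 with NC against 35.1 with si-THOC2, or -0.63 as a log2 fold change. Both were lower on the array that titles and descriptions assign to si-THOC2. Among 1000 probes of like signal, none lay further below 0 than the first probe and 5.7% did than the second.

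As facts of the whole series, 42.3% of probes were well above background with NC and 39.4% with si-THOC2, and 25345 probes on at least 1 array were compared. Technical error was read from repeated spots. From these, the technical SD of a log2 fold change was 0.06 where the mean log2 signal exceeded 8 (244 repeated probes) and 0.11 between 6 and 8 (36 repeated probes). The scanner software's own error model gives a larger SD, 0.20 to 0.22 for the member probes, each of which is printed on 1 spot. Of the melanoma lineage markers, SOX10 (6196 with NC and 5196 with si-THOC2), MITF, S100A1 and S100B passed the background limit on each of the arrays, as did DCT at a dim 18 and 24.4. MLANA was well above background only with si-THOC2, at 18.7, and PMEL, TYR and TYRP1 on neither array. Of 6 markers of other cell types, KRT5 and COL1A1 were above background on neither array. KRT14, PTPRC, PECAM1 and CD3E each had a dim probe, 16.2 to 104 in signal, that was above it on both. The log2 fold changes of these probes were 0.39 to 0.87. Another KRT14 probe, above background only with si-THOC2, was at 1.49. Whether these dim signals come from separate cells was not tested, nor was any part of such cells in the members' values.

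On both arrays all 11 member probes stood well above background. Before scaling, 10 of the 11 read lower with si-THOC2, at 69.1% to 94.7% of NC, and RNASEH2A was at 102%. The same held for 84.5% of all compared probes. Each array was reduced by its 75th percentile on the log2 scale (6.62 with NC and 6.31 with si-THOC2), which adds 0.31 to every log2 fold change. After scaling, 8 of the 11 member probes were above 0 and 3 below, and of all compared probes 53.6% were above 0.

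**Figure D1:**
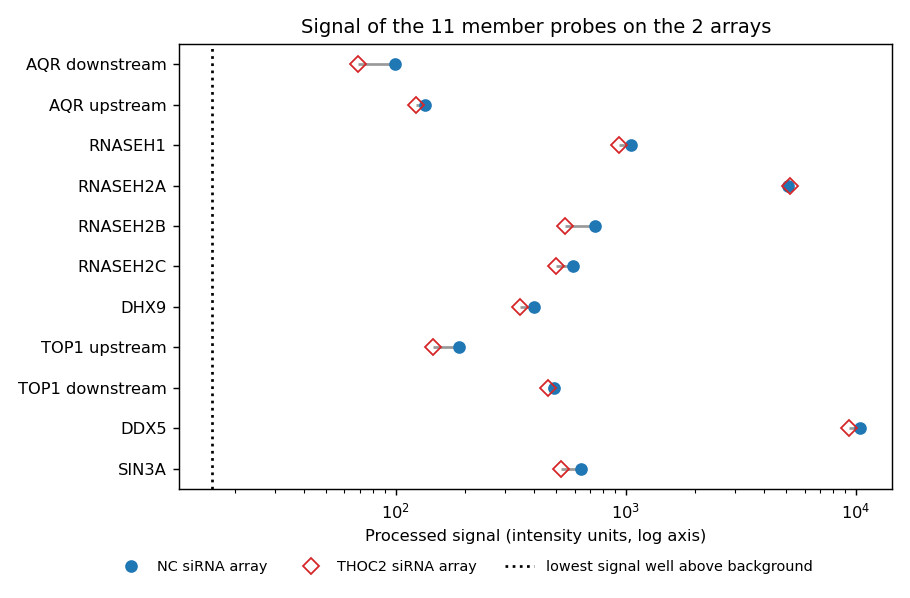
Processed signal (intensity units, log axis, before scaling) of each member probe on the NC array (filled circles) and the THOC2 siRNA array (open diamonds), 1 array each, with the lowest signal well above background as a dotted line. Every probe lies to the right of the line, and RNASEH2A is the 1 probe that was not lower with si-THOC2. Signals of different probes are not comparable in level.

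RNase H2 is made of a catalytic subunit, RNASEH2A, and the accessory subunits RNASEH2B and RNASEH2C, and it also removes single ribonucleotides built into DNA. The RNASEH2A probe, at hg19 chr19:12924276-12924335, read 5054 on the NC array and 5180 on the si-THOC2 array. After scaling its log2 fold change was 0.35 (technical SD 0.06, software error 0.20). Of 1000 probes of like signal, 7% were higher by more, and 92.9% stood lower.

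The RNASEH2B probe read 739 on the NC array and 546 on the si-THOC2 array, which gave -0.13 as its log2 fold change (technical SD 0.06, software error 0.20). Of the 1000 like-signal probes, 19.7% lay further down. RNASEH2C, at chr11:65485144-65485203, had 590 with NC and 499 with si-THOC2, and its log2 fold change was 0.07. The RNASEH2C difference was about as large as its technical SD of 0.06.

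The subunits can also be set against each other within the same arrays, where the scaling cancels. The log2 fold change of RNASEH2A exceeded that of RNASEH2B by 0.47 (technical SD 0.08, software error 0.29) and that of RNASEH2C by 0.28. RNASEH2C exceeded RNASEH2B by 0.20. Over 10 alternative ways of processing, the gap between RNASEH2A and RNASEH2B stayed above 0, from 0.40 to 0.48. The pair holds the highest and the lowest gene value of the 9 members, so its gap is the widest among them, and the spread between cultures was not measured.

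RNASEH1 encodes the single-chain RNase H that acts in the nucleus and in mitochondria. Its probe read 1055 on the NC array and 939 on the si-THOC2 array, which gave 0.14 as its log2 fold change (technical SD 0.06, software error 0.20). It was at 0.00 with normexp background correction and above 0 in the other 9 alternatives. Among probes of like signal 33.5% were higher by more.

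**Figure D2:**
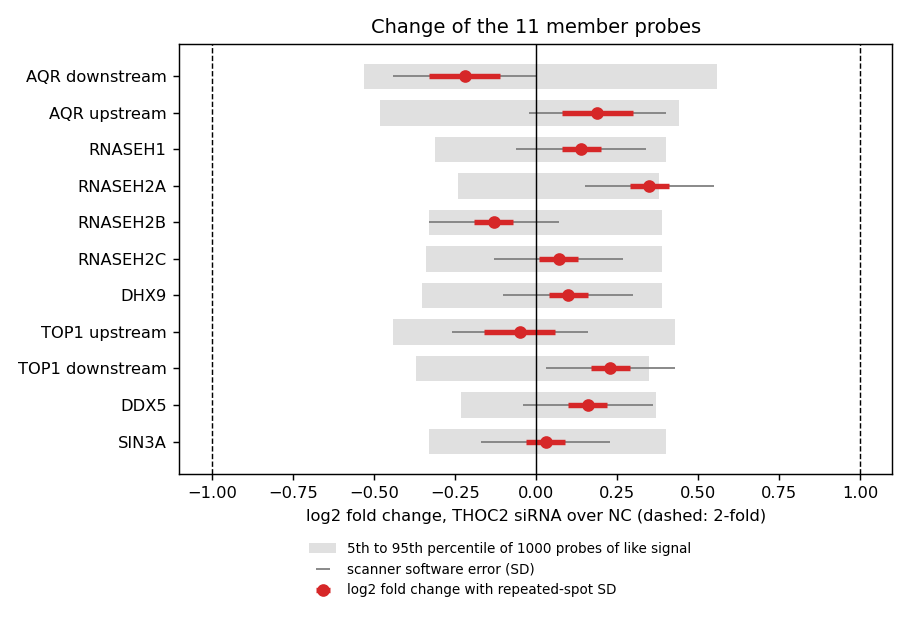
log2 fold change (THOC2 siRNA over NC, 75th percentile scaling) of the 11 member probes with the technical SD of repeated spots (thick bars) and the scanner software's error (thin bars). Grey boxes span the 5th to 95th percentile of 1000 probes of like signal, and dashed lines mark 2-fold. All 11 points lie inside their grey box, with RNASEH2A at 0.35 closest to an edge, at 0.38.

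AQR is a spliceosomal helicase of the intron-binding complex. Its upstream, intron-spanning probe read 134 on the NC array and 123 on the si-THOC2 array, which gave 0.19 as its log2 fold change (technical SD 0.11). Its downstream probe, at chr15:35147794-35147853, read 99.4 with NC against 68.7 with si-THOC2, or -0.22 as a log2 fold change (technical SD 0.11). The mean of both probes was -0.02. Of the 1000 probes nearest in signal, 22.2% were higher than the upstream probe and 22.1% lower than the downstream one.

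The 2 AQR probes differed by 0.41 in log2 fold change. Among 2019 genes with 2 probes of mean log2 signal over 6 on both arrays, the median gap was 0.13, and 89% of genes had a smaller gap than AQR. These genes were not matched to AQR in signal. Probes over 8 in mean log2 signal have a technical SD of 0.06, against 0.11 for the AQR probes. With normexp background correction the AQR gap was 0.22. For AQR, the pair of probes therefore gave no common direction.

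DHX9 is a helicase that unwinds RNA-DNA hybrids and structured RNA. Its probe read 400 on the NC array and 346 on the si-THOC2 array, which gave 0.10 as its log2 fold change (technical SD 0.06, software error 0.20). DDX5, a DEAD-box helicase and transcription cofactor, read 10439 with NC against 9387 with si-THOC2, or 0.16 as a log2 fold change (technical SD 0.06, software error 0.20). Both lay well within the like-signal probes, of which 37.8% were above DHX9 and 28.8% above DDX5. The helicases differed from each other by 0.05 in log2 fold change, within the technical SD of that difference of 0.08.

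TOP1 is the type I topoisomerase that removes supercoils ahead of and behind RNA polymerase. Its upstream probe read 188 on the NC array and 146 on the si-THOC2 array, which gave -0.05 as its log2 fold change (technical SD 0.11). Its downstream probe, at chr20:39752205-39752264, read 487 with NC against 461 with si-THOC2, or 0.23 as a log2 fold change (technical SD 0.06). The gap of 0.28 was larger than in 78.1% of genes with 2 probes, which were not matched for signal, and the mean of both probes was 0.09. Among like-signal probes 16.3% were above the downstream probe, while the upstream probe lay close to their middle, with 42.5% lower.

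SIN3A is the scaffold of the SIN3 histone deacetylase complex. Its probe, at chr15:75663585-75663644, read 640 on the NC array and 526 on the si-THOC2 array, which gave 0.03 as its log2 fold change (technical SD 0.06). It was above 0 in 5 of the 10 alternatives and below 0 in the other 5, down to -0.08, and no direction can be given. Like-signal probes were divided around it, 44.7% lower and 55.2% higher.

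**Figure D3:**
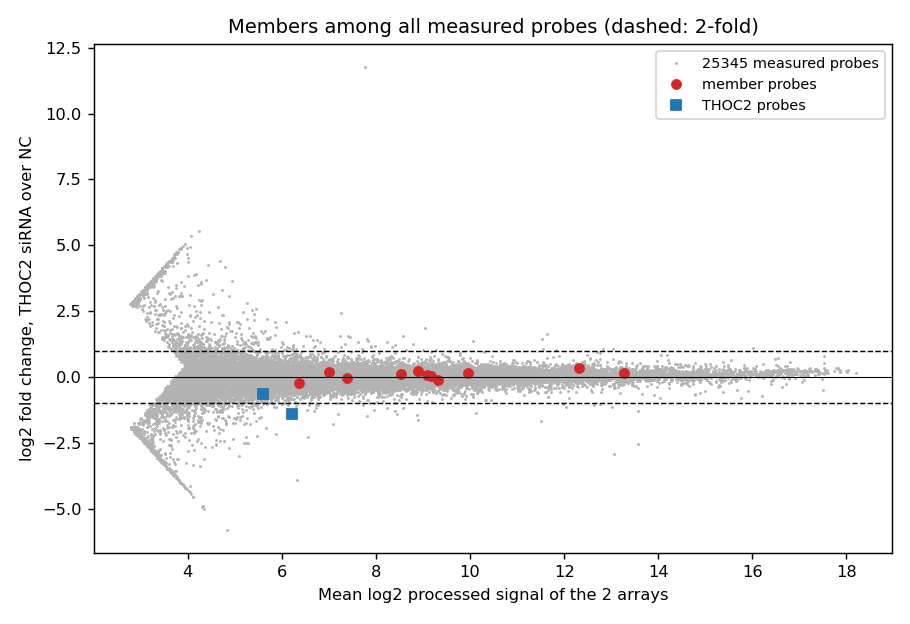
log2 fold change (THOC2 siRNA over NC) against the mean log2 processed signal of the 2 arrays for 25345 compared probes (grey), with the member probes (red) and the THOC2 probes (blue squares), and dashed lines at 2-fold. Member probes lie between -0.22 and 0.35, inside the band of probes of like signal, while 1 THOC2 probe lies below the lower dashed line.

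Counted over thresholds, 0 of the 11 member probes passed 2-fold, against 6.26% of all compared probes in either direction, and 0 passed 1.5-fold, against 13.8%. At 1.2-fold, 1 member probe, that of RNASEH2A, was higher, against 19.3% of compared probes, and 0 were lower, against 19.3%. In 4 of the 10 alternatives RNASEH2A was not past 1.2-fold and the count was 0. The background shares hold many dim probes, while most member probes had bright or medium signals. The dimmest, the AQR downstream probe, read 99.4 with NC and 68.7 with si-THOC2. Where both arrays read over 7 in log2 signal (12373 probes), log2 fold changes spread with an SD of 0.23 around a median of 0.06. As genes, the 9 members had a median log2 fold change of 0.09, from -0.13 (RNASEH2B) to 0.35 (RNASEH2A), beside a median of 0.02 over 17514 genes with a symbol and of 0.04 over 15647 genes measured on both arrays.

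Position on the slide was read beside these values. In 128 blocks of spots, the median log2 fold change of the compared probes ran from -0.11 to 0.22, and in the 9 blocks that hold member probes from -0.04 to 0.08. The RNASEH2A block was at 0.08, and its probe stood 0.27 above it. The RNASEH2B block was at 0.00, and its probe stood at -0.13 against it.

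Members of 5 neighbouring groups were set beside the members. None of the genes in these lists passed 2-fold, where 6.3% of all 17514 genes did in either direction. Of the 15647 genes measured on both arrays, as nearly all list genes were, 156 were past 2-fold higher and 99 past it lower. At 1.2-fold, 18.6% of all genes were higher and 18.5% lower.

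Of 22 other R-loop helicases and factors, 21 were measured, with a median of 0.11. Of these, 2 were past 1.2-fold higher, WRN (0.31) and DDX39A (0.27), and 2 past it lower, among them FANCM (-0.40). WRN is a RecQ helicase and DDX39A an mRNA export helicase. FANCM, a translocase that moves branched DNA, went from a dim 53.2 with NC to 32.5 with si-THOC2 (technical SD 0.29). FANCM was below 0 in all 10 alternatives, at -0.44 to -0.12. At their lowest over the alternatives WRN was at 0.17 and DDX39A at 0.16, and at those values neither was past 1.2-fold. DDX17, the close relative of DDX5 and named here after its values were seen, had 1 probe at -0.38 and 1 at 0.56, a wider split than in AQR.

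The 4 partners of AQR in the intron-binding complex had a median of 0.05, which was -0.02 with normexp background correction. XAB2, which also binds repair factors, was at 0.66 with a dim signal that read 50 on the NC array and 63.7 on the si-THOC2 array (technical SD 0.29). Over the alternatives XAB2 ran from 0.33 to 0.67. The other partners were ISY1 (0.10), PPIE (0.00) and ZNF830 (-0.03).

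Topoisomerases and their partners had a median of 0.16 over 10 genes, and 3 of them were past 1.2-fold, all higher. TDP1, which frees trapped TOP1 from DNA ends, read 848 on the NC array and 977 on the si-THOC2 array. Its log2 fold change was 0.51 (technical SD 0.06, software error 0.20). TOP1MT, the mitochondrial counterpart of TOP1, read 3981 with NC against 4338 with si-THOC2, or 0.43 as a log2 fold change. RMI2, a partner of TOP3A and named here after its values were seen, was at 0.39. For these 3 genes the signal was higher with si-THOC2 also before scaling, and over the alternatives TDP1 ran from 0.33 to 0.58, TOP1MT from 0.29 to 0.49 and RMI2 from 0.32 to 0.39. RMI1 (-0.05) and TOP2A (-0.02) were the lowest of the list.

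Of 16 partners in the SIN3 complex, 15 were measured, with a median of 0.13 and 12 above 0. Beside this, 9350 of all 17514 genes were above 0, and 8752 of the 15647 measured on both arrays. At 1.2-fold 2 genes of the list were higher and 1 lower. The higher ones were SUDS3 (0.28) and SAP30L (0.26), which ran down to 0.18 and 0.16 over the alternatives and were then not past 1.2-fold. SAP30L is a mean of 2 probes, at 0.13 and 0.40. The lower one was BRMS1L, named after its values were seen, which was well above background with NC (26.5) but not with si-THOC2 (14.8). With the dimmest signal well above background (15.9) put in place of its si-THOC2 signal, BRMS1L was 1.35-fold lower after scaling. That value allows for no error, and its 1 probe had a technical SD of 0.29 and a software error of 0.41. Its log2 fold change was -0.52, and -0.55 to 0.00 over the 9 alternatives that gave a value. No least size can therefore be given for the difference. Among genes on both arrays, SAP30 (-0.21) and SAP18 (-0.20) were the lowest. SAP30 read 615 on the NC array and 429 on the si-THOC2 array.

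Loss of RNase H2 is known to set off the cytosolic sensing of nucleic acids. Of 6 genes that sense DNA or RNA, or restrain such sensing, 5 were measured. Their median of 0.01 was above 0 in 5 alternatives and below 0 in 5. The gene not measured, MB21D1, was well above background on neither array. IFIH1, a sensor of double-stranded RNA, read 380 on the NC array and 215 on the si-THOC2 array. Its log2 fold change was -0.51 (technical SD 0.06, software error 0.21), with -0.53 to -0.48 over the alternatives. TREX1, an exonuclease that clears DNA from the cytosol, was at -0.13. SAMHD1, which degrades deoxynucleotides, had 1 measured probe, a dim 54.8 with NC and 76.3 with si-THOC2. Its log2 fold change was 0.79 (technical SD 0.11, software error 0.23), and 0.47 to 0.80 over the alternatives. The mean log2 signal of this probe lies just over 6, and from 4 to 6 the technical SD was 0.29. TMEM173, the adaptor STING, was at 0.12, and at -0.01 to 0.17 over them.

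**Figure D4:**
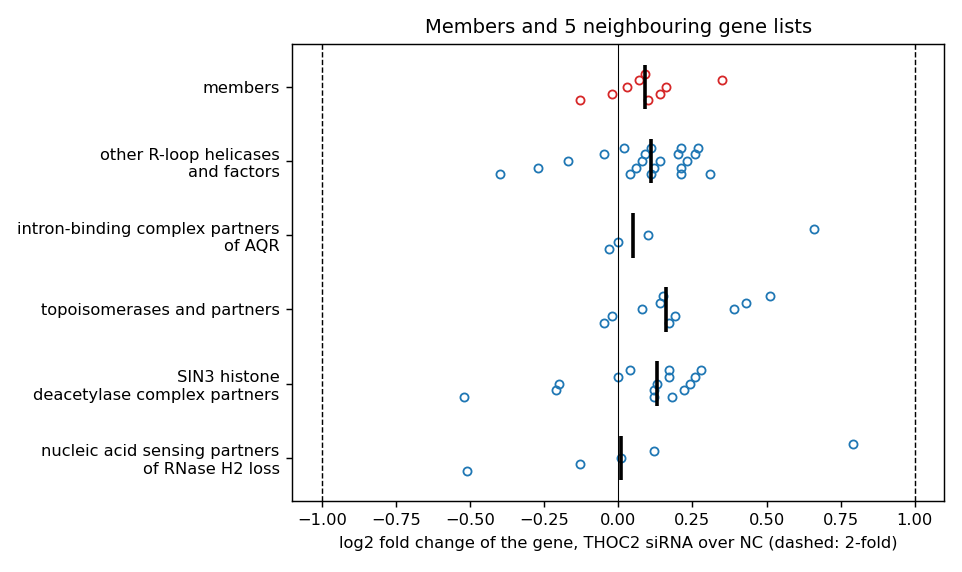
log2 fold change per gene (THOC2 siRNA over NC, mean of its measured probes) for the members (red) and the genes of 5 neighbouring lists (blue), with a black bar at each list's median and dashed lines at 2-fold. Medians lie between 0.01 and 0.16, and no gene reaches a dashed line.

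The members' values shifted with the processing. RNASEH2A ran from 0.21 to 0.35 and RNASEH2B from -0.23 to -0.13 over the 10 alternatives, each keeping its side of 0. DDX5 ran from 0.02 to 0.16, DHX9 from 0.01 to 0.10 and RNASEH2C from 0.02 to 0.07. For DDX5, DHX9 and RNASEH2C the sign held in the alternatives run, while the size reached near 0. Alternatives that changed only the detection filter or the floor could not alter a member's value, since every member probe was well above background on both arrays. The authors' normalized values gave the same rounded member values as quantile normalization. For TOP1 the probes stayed opposed, the upstream one at -0.11 to -0.05 and the downstream one at 0.12 to 0.23.

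**Figure D5:**
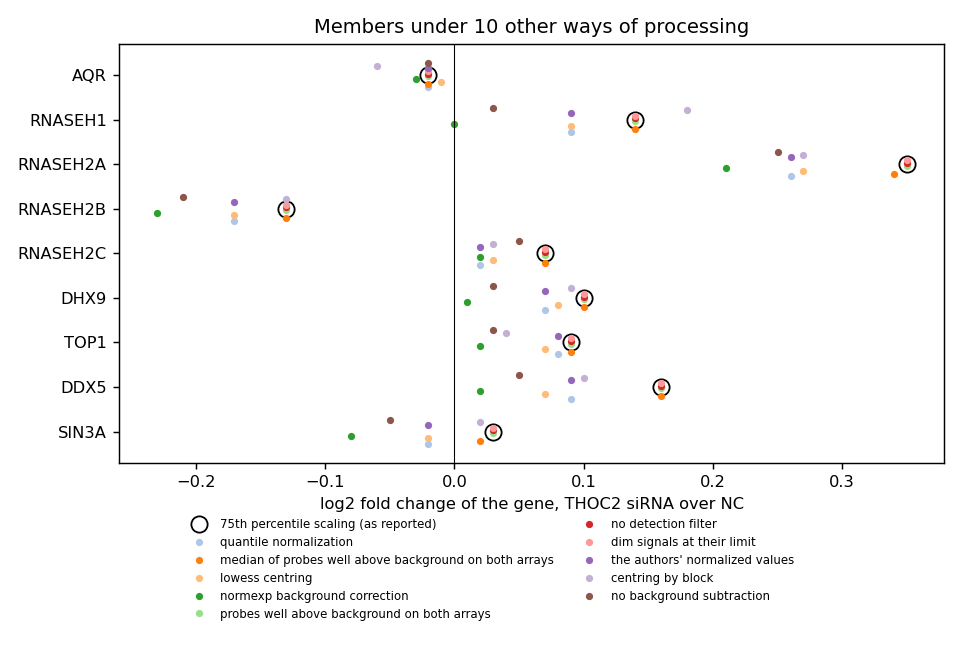
log2 fold change of each member gene (THOC2 siRNA over NC) with 75th percentile scaling (open black circles) and with 10 other ways of processing (coloured points, named in the key). RNASEH2A stays between 0.21 and 0.35 and RNASEH2B between -0.23 and -0.13, while SIN3A falls on both sides of 0.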

How the data were processed

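RNA of 1 A375 sample per siRNA (NC, si-THOC2) was hybridized to 1-colour Agilent SurePrint G3 Human v3 arrays. The authors deposited scanner output with intensity values per spot (Feature Extraction 10.7.1.1, background-subtracted and detrended), and a table of normalized log2 values, whose sorted values on both arrays differ by at most 0.042. A deposited table of the authors' own fold changes was not used. With a single array for each siRNA, the Student's test of the methods could not be made.

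Control spots and outlier spots (230 with NC, 253 with si-THOC2) were left out, and no spot was saturated. log2 values were averaged over each probe's spots, and each array was reduced by its 75th percentile. The 25345 probes called well above background by the scanner software, in most of their spots on 1 array or both, were compared, and genes were given the mean over their compared probes. The number of arrays limits the precision. Gene symbols and hg19 positions come from the deposited annotation, and probes were not assigned to exons or UTRs here.

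Members and lists were chosen with earlier results of these data known. Genes named are the 9 members, THOC2, the cell type markers and transcripts named after a member. Of each neighbouring list, those past 2-fold or else the highest and lowest 2 on both arrays are named. DDX17, RMI2, BRMS1L and MB21D1 were named outside this rule, after their values were seen. The values of 1 list gene are not reported here. The alternatives were quantile normalization, median scaling, lowess centring (span 0.3), normexp (offset 50), a filter for detection on both arrays, no filter, a floor under dim signals at the detection limit, the authors' own normalized values, centring in 128 blocks, and no background subtraction. Probes of like signal are the 1000 nearest in mean log2 signal. Python 3.11.15 with numpy 2.4.6, pandas 2.3.3 and statsmodels 0.14.6 was used, and limma 3.58.1 was run in R 4.3.3.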

Additional observations from a re-analysis of the deposited data

How the results depend on the processing

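No paired analysis was possible because each siRNA has a single array, and for the same reason no replicate could be left out. No member passed 2-fold or 1.5-fold under any of the 10 alternatives. At 1.2-fold the count of member probes was 1 in the values reported and 0 with quantile normalization, the authors' normalized values, normexp and no background subtraction. The cause of these shifts was not tested. Quantile normalization and the authors' normalized values both put RNASEH2A at 0.26, DDX5 at 0.09 and the median of the nucleic acid sensing list at -0.06. With lowess centring they were at 0.27, 0.07 and -0.06. Centring by block gave 0.27 for RNASEH2A and 0.08 for the sensing list. Normexp moved the values most, to 0.21 for RNASEH2A, -0.23 for RNASEH2B, 0.00 for RNASEH1, 0.01 for DHX9, 0.02 for TOP1, 0.02 for DDX5 and -0.08 for SIN3A. It put the median of the members at 0.01, of the intron-binding complex at -0.02, of the topoisomerases at 0.10, of the SIN3 complex at 0.04 and of the sensing list at -0.12. Without background subtraction the values were 0.25 for RNASEH2A, -0.21 for RNASEH2B, 0.03 for RNASEH1, 0.03 for DHX9, 0.05 for DDX5, -0.05 for SIN3A and -0.09 for the sensing list. Median scaling, probes on both arrays only, no detection filter and dim signals at their limit moved none of the 18 results by more than the technical SD. For the member results, the filters and the limit for dim signals could not move any value. Every member probe was well above background on both arrays. Without a detection filter the median of all genes was 0.24, most of them near background, so changes there are relative to that shift.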

Other observations

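Transcripts named after a member were read on their own probes. RNASEH1-AS1, an antisense RNA at the RNASEH1 locus, has probes at hg19 chr2:3607234-3607293 and, spanning an intron, chr2:3606570-3608947. Their signals were 252 and 283 with NC and 203 and 212 with si-THOC2, with log2 fold changes of 0.00 and -0.10 (technical SD 0.11 each), beside 0.14 for RNASEH1 itself. RNASEH2B-AS1 was not well above background on either array. TOP1P2, a pseudogene copied from TOP1, read 420 on the NC array and 403 on the si-THOC2 array, or 0.25 as a log2 fold change, close to the 0.23 of the downstream TOP1 probe. Whether its probe also reads TOP1 mRNA was not tested.

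The deposited Gene Ontology terms place the members among other genes, in terms chosen after the values were seen. All 9 members carry the term for the nucleus. Of 10 genes under RNA helicase activity, with a median log2 fold change of 0.10, DDX5 was the 2nd highest and DHX9 the 5th highest. Of 6 genes under RNA-DNA hybrid ribonuclease activity, RNASEH2A was the highest, RNASEH1 came next and RNASEH2B was the lowest. DNA replication holds RNASEH2A, TOP1 and SIN3A, and 43 of its 121 measured genes were past 1.2-fold higher and 12 past it lower, with a median of 0.16, beside 18.6% higher and 18.5% lower over all genes. Of those 121, RNASEH2A ranked 30, TOP1, by the mean of its opposed probes, 70, and SIN3A 81. In the catalytic step of the spliceosome, with a median of 0.09 over 80 measured genes, DDX5 ranked 23 of those 80 from the top. AQR, by the mean of its opposed probes, ranked 61 of the same 80. Of 12 measured genes in the Sin3 complex, with a median of 0.15, SIN3A ranked 10 from the top.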
